A study of Mus musculus with 6 samples.

Results

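The 10 genes described here serve the absorption of dietary lipid: Apoa1, Apoa4, Apoc3, Apob, Mttp, Fabp1, Fabp2, Dgat1, Dgat2 and Cd36. They were taken by symbol and mapped to the Ensembl identifiers of the count matrix with GENCODE, 10 of the 27998 genes it holds. Their RNA was measured by droplet single-cell RNA sequencing (10x Genomics 3' V2, in which each captured RNA molecule carries a unique molecular identifier, UMI) in differentiated monolayers grown from mouse intestinal organoids. There were 2 libraries in each of 3 groups: DMSO, the solvent control, tunicamycin for 13 h, and tunicamycin for 25 h. Tunicamycin, used at 0.5 µg/ml, stops cells from adding N-linked sugars to new proteins, which stresses the endoplasmic reticulum (ER). The series title asks which programs of gene expression over time decide the outcome of that stress.

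Monolayers of all 3 groups came from the same cross, Rosa26-floxed STOP-Cas9 mice with cmv-cre mice on B6, which carries a Cas9 transgene at Rosa26 and a Cre driven by the cmv promoter. All were cultured in medium with 5% L-WRN, a conditioned medium that supplies Wnt3a, R-spondin and Noggin, to differentiate them. The 25 h group received tunicamycin on the morning of differentiation day 3, the 13 h group stood in DMSO for the first 12 h, and all groups were harvested on the morning of day 4. The series text calls the 2 libraries of a group biological replicates, and the sources used here do not say how many animals the organoids came from. Dead cells were removed with a kit before capture. The tissue label names small intestine and the growth protocol names colonic spheroids, and each region had markers that were present and markers that were absent. Over all libraries Slc10a2, the bile acid transporter of the ileum, had 59062 UMIs and Gata4, a factor of the proximal small intestine, had 0. Car1, a carbonic anhydrase of the colon, had 185308 UMIs, and Hoxb13 and Hoxd10 to Hoxd13 had 0.

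Absorptive cells of the gut, the enterocytes, take up fatty acids and monoglycerides, rebuild them into triglycerides in the ER, and secrete them on lipoprotein particles called chylomicrons. Cd36 takes up fatty acids at the cell surface, Fabp1 and Fabp2 bind them in the cytosol, and Dgat1 and Dgat2 catalyse the last step of triglyceride synthesis. Mttp loads lipid onto Apob, the structural protein of the particle, while Apoa1, Apoa4 and Apoc3 are smaller apolipoproteins carried on its surface. In the small intestine these genes are known for high expression in mature enterocytes, and several of them are regulated by HNF4 factors.

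Apoa1 (ENSMUSG00000032083, chr9:46228580-46230466, plus strand), Apoc3 (ENSMUSG00000032081, chr9:46232933-46235636, minus strand) and Apoa4 (ENSMUSG00000032080, chr9:46240696-46243459, plus strand) lie beside each other within 14880 bases (GRCm38). Apob (ENSMUSG00000020609) lies at chr12:7977648-8016835 on the plus strand, Mttp (ENSMUSG00000028158) at chr3:138089854-138144968 on the minus strand and Fabp2 (ENSMUSG00000023057) at chr3:122895072-122899506 on the plus strand. Fabp1 (ENSMUSG00000054422) lies at chr6:71199827-71205023 on the plus strand and Cd36 (ENSMUSG00000002944) at chr5:17781690-17888801 on the minus strand. Dgat1 (ENSMUSG00000022555, chr15:76502015-76511953, minus strand) and Dgat2 (ENSMUSG00000030747, chr7:99153658-99182719, minus strand) are on different chromosomes.

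The promoter windows of 4 of these genes are shown because the genes contrast in the data: Apoa4 was among those with the deepest fall, Fabp2 had nearly the same fold change in both main cell classes at 25 h, Apob fell least among the apolipoproteins, and Fabp1 was almost undetected. Each window is the RefSeq sequence of GRCm38.p6, 5′ to 3′ on the plus strand, with 250 bases before the RefSeq transcription start and 50 after it. Capitals mark matches, on either strand, to the letters searched: TATAAA (the TATA box), CAAAG and the longer CAAAGTCCA (HNF4 type), GTTAAT (HNF1 type), TGACGT (cyclic AMP response element core), TTTATNG (CDX type), and the ER stress element. The windows are Apoa4 at chr9:46240594-46240893, Fabp2 at chr3:122894822-122895121, Apob at chr12:7977427-7977726 and Fabp1 at chr6:71199629-71199928.
Apoa4: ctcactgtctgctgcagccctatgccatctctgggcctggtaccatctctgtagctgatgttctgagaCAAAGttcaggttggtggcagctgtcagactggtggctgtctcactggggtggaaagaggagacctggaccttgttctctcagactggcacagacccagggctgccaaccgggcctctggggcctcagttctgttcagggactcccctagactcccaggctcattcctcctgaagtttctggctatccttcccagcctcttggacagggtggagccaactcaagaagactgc
Fabp2: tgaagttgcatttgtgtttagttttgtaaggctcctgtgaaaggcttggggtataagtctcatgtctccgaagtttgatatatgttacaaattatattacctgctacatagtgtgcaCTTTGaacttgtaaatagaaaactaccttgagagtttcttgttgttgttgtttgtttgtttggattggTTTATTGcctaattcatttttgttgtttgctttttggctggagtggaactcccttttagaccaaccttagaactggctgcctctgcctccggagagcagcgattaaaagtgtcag
Apob: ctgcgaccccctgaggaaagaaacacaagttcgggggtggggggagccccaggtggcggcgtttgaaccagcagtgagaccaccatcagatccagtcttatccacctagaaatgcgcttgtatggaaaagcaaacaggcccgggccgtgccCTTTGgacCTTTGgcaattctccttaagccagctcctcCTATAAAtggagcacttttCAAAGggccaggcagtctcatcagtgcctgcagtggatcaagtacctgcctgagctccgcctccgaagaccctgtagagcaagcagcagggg
Fabp1: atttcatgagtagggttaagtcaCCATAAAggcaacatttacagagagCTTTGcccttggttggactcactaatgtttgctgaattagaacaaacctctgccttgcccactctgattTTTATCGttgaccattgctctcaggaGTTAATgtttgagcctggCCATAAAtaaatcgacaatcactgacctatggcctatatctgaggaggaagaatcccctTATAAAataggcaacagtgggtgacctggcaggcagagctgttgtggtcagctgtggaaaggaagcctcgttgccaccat

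The table held a window for 7 of the 10 genes. CAAAG was found in the windows of Fabp2, Mttp, Cd36, Fabp1, Apoa4 and Apob, and it was found in 53.9% of the 32851 windows in the table. TATAAA was found in Fabp1 (first base 30 bases before the start) and in Apob (60 bases before), against 13.6% of all windows. TTTATNG was found in Fabp2, Fabp1 and Apob, against 10.9% of all windows, and its match in Apob overlaps the TATAAA there. GTTAAT was found in Fabp1 alone of the 7 (7.10% of all windows) and TGACGT in Mttp alone (7.51%). Neither the ER stress element (0.119% of all windows) nor CAAAGTCCA (0.475%) was in any of the 7 windows. These matches describe letters in the windows and were not tested for function.

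Counts were summed per library within the classes that the authors wrote into the cell names. In such sums fewer cells with a transcript and less transcript per cell cannot be told apart. Kept enterocytes numbered 1046 and 1037 in the DMSO libraries, 686 and 726 after 13 h, and 426 and 447 after 25 h, with between 7760117 and 17429023 UMIs per library. Goblet cells, which secrete mucus, numbered between 75 and 109 per library. The usual marker of ER stress was high in every treated library: Hspa5, which encodes the main ER chaperone BiP, had 159 and 214 counts-per-million units (CPM) in the DMSO enterocytes, 4992 and 5120 CPM after 13 h, and 2916 and 3155 CPM after 25 h. Levels are CPM after TMM scaling (trimmed mean of M-values), with replicate 1 of a group given before replicate 2. Rising and falling refer to genes with an adjusted p (Benjamini-Hochberg) below 0.05 in edgeR's quasi-likelihood test over the 11145 genes tested in enterocytes, with 2 libraries per group, and errors of fold changes are standard errors (SE). These p-values set a difference between groups against the spread between libraries, which was estimated over all 3 groups and moderated across genes.

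All 9 of the genes that could be tested in enterocytes were lower after tunicamycin at both times. At 13 h all 9 fell against DMSO, where 23.8% of all genes tested fell, and their median log2 fold change was -1.31 against 0.01 over all genes. At 25 h all 9 fell again, where 24.2% of all genes fell, with a median of -1.55 against 0.03 over all genes. Between the times 6 of the 9 fell further at 25 h than at 13 h, where 10.9% of all genes fell, with a median of -0.32 against 0.00 over all genes, and 0 rose, where 10.4% of all genes rose. DESeq2 gave the same counts of 6 and 0 for that comparison, and 0 rose at an unadjusted p below 0.05 in either tool. In all 9 genes both libraries of each tunicamycin group lay below both DMSO libraries, which held for 36.8% of all genes at 13 h and 35.8% at 25 h. All of the 9 but Apoa1 and Cd36 also had both 25 h libraries below both 13 h libraries. That held for 30% of all genes. The share of genes with no overlap among all 3 groups was not computed. Both comparisons with DMSO use the same DMSO libraries. The same 9 genes were called in sums over all cells, where 24.3% of genes fell at 13 h and 26.1% at 25 h. In these sums DESeq2 called 7 of the 9 at 13 h, without Apoa1 (adjusted p = 0.0674) and Dgat1 (adjusted p = 0.0612). Dgat1 was also lost there with total counts (edgeR, adjusted p = 0.093), without 13 h replicate 1 (adjusted p = 0.0606) and without DMSO replicate 2 (adjusted p = 0.0625). In the same sums 6 of the 9 were lower at 25 h than at 13 h, where 9.6% of genes fell, and 0 rose by edgeR or DESeq2, adjusted or not, where 8.95% of genes rose by edgeR.

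**Figure D1:**
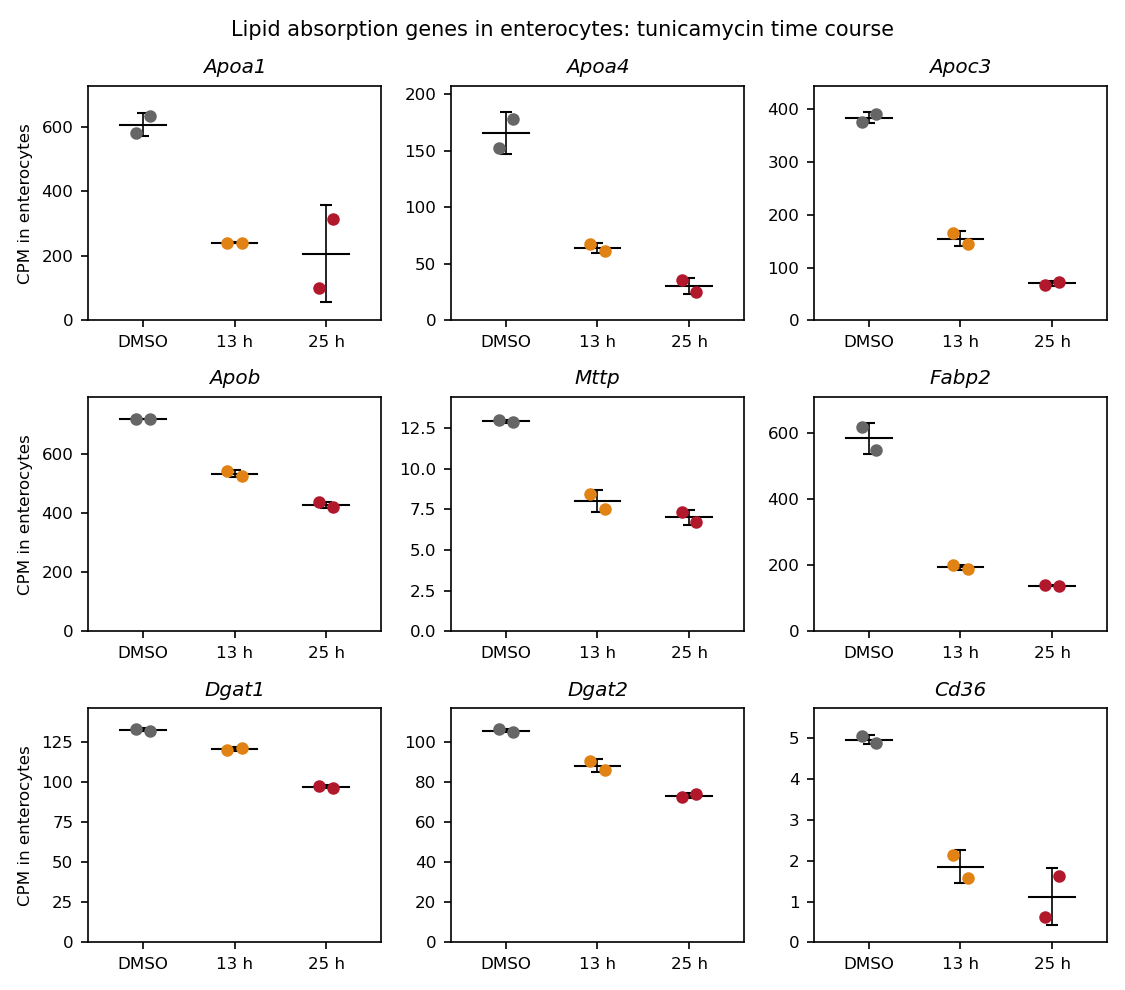
CPM of 9 genes in enterocytes by group (DMSO, 13 h and 25 h of tunicamycin), each axis from 0. Points are libraries, the wide line is the mean of 2 libraries and the error bar is their SD. All points at 13 h and 25 h lie below the DMSO points, and the 25 h libraries of Apoa1 stand apart at 101 and 313 CPM.

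At 25 h the deepest falls were in the surface apolipoproteins Apoc3 and Apoa4. Apoc3, which inhibits lipoprotein lipase, had 377 and 392 CPM in DMSO enterocytes, 165 and 145 CPM after 13 h, and 67.1 and 73.6 CPM after 25 h. The groups did not overlap, and each step down in time was larger than the distance between libraries. Its log2 fold change was -1.31 ± 0.06 (SE) at 13 h against DMSO (edgeR, adjusted p = 4.22e-10) and -2.45 ± 0.07 at 25 h against DMSO (adjusted p = 3.48e-12). At 25 h it was lower than at 13 h by a log2 fold change of -1.13 ± 0.07 (edgeR, adjusted p = 1.06e-07).

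Apoa4, an apolipoprotein secreted on chylomicrons after a fatty meal, had 153 and 178 CPM in DMSO enterocytes, 67.4 and 61.1 CPM after 13 h, and 35.8 and 25.4 CPM after 25 h. Again the groups did not overlap. The log2 fold change was -1.36 ± 0.09 at 13 h and -2.44 ± 0.11 at 25 h against DMSO (edgeR, adjusted p = 3.1e-08 and 3.78e-10), 5.44-fold lower at 25 h. At 25 h the level was also lower than at 13 h (-1.08 ± 0.12, edgeR, adjusted p = 2.86e-05). In 25 h replicate 1 a single enterocyte held 87 of the 284 Apoa4 UMIs (30.6%). Without the cell that held the most Apoa4 in each library, the 25 h libraries had 25.4 and 23.9 CPM (unscaled), against 146 and 168 in DMSO.

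Apoa1, the main protein of high-density lipoprotein, had 581 and 633 CPM in DMSO enterocytes, 239 and 241 CPM after 13 h, and 101 and 313 CPM after 25 h. The DMSO libraries were above all others, while the 25 h libraries lay on either side of the 13 h libraries. Apoa1 fell at 13 h (-1.34 ± 0.28, edgeR, adjusted p = 0.00138) and at 25 h (-1.55 ± 0.29, adjusted p = 5.12e-04) against DMSO. The call at 13 h was lost with DESeq2 (adjusted p = 0.0769). Its difference between 25 h and 13 h did not pass (-0.21 ± 0.30, edgeR, adjusted p = 0.671).

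A single cell weighed heavily on the Apoa1 level of 25 h replicate 2. That enterocyte held 1443 of the library's 2714 Apoa1 UMIs (53.2%), which were 7.26% of that cell's 19870 UMIs, and the cell was not among the called doublets. The highest cell held 11.8% of the Apoa1 UMIs in 25 h replicate 1 and between 5.57% and 8.32% in the DMSO and 13 h libraries. Without the highest cell of each library, Apoa1 had 537 and 575 CPM (unscaled) in DMSO, 228 and 226 after 13 h, and 91.2 and 146 after 25 h. The 3 groups then no longer overlapped, but these cells were picked by the values compared. A single cell is also a larger share of the 426 and 447 enterocytes at 25 h than of the 1046 and 1037 in DMSO. With the cells that held the most UMIs of each gene left out of the fit, an alternative chosen after the data were seen, Apoa1 was at -2.26 ± 0.13 for 25 h against DMSO (edgeR, adjusted p = 1.29e-09) and at -0.87 ± 0.13 for 25 h against 13 h (adjusted p = 2.23e-04). Leaving out those cells deepened the enterocyte fall at 25 h against DMSO for every gene tested of the 10, with Fabp2 going from -2.07 to -2.25. The p-values of that fit therefore carry no separate weight. The Apoa1 comparison of 25 h with 13 h turned to 0.38 without 25 h replicate 1 and was -1.26 without 25 h replicate 2. Against DMSO, Apoa1 at 25 h was at -0.98 without 25 h replicate 1 and at -2.59 without 25 h replicate 2. In every fit that leaves out a library, its group is a lone library that is assumed to vary like the other groups, and here the lone 25 h replicate 2 had most of its Apoa1 in a single cell.

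**Figure D2:**
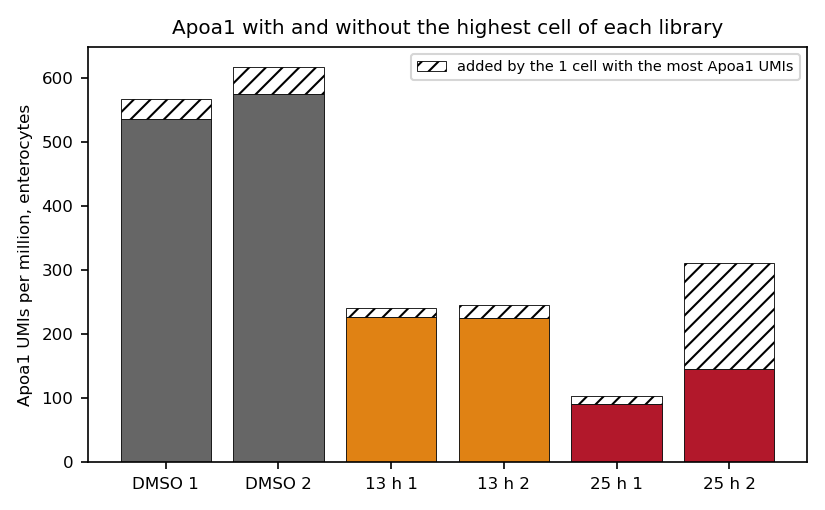
Apoa1 level in enterocytes of each library (CPM without TMM scaling, axis from 0). The filled bar leaves out the 1 cell with the most Apoa1 UMIs and the hatched part is what that cell adds, which in 25 h replicate 2 takes the level to 311 against 146 without it.

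Apob and its loading partner Mttp fell less. Apob had 718 and 719 CPM in DMSO enterocytes, 542 and 525 CPM after 13 h, and 436 and 420.4 CPM after 25 h. The libraries of a group lay close together and no groups overlapped. Apob fell by 0.43 ± 0.04 on the log2 scale at 13 h and by 0.75 ± 0.04 at 25 h against DMSO (edgeR, adjusted p = 2.24e-06 and 7.01e-09), a level 40.4% lower at 25 h. It fell by a further 0.32 ± 0.05 between 13 h and 25 h (edgeR, adjusted p = 1.76e-04).

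Mttp, the large subunit of the microsomal triglyceride transfer protein, was sparse, with 221 and 210 UMIs in all DMSO enterocytes. It had 13.0 and 12.8 CPM in DMSO, 8.46 and 7.52 CPM after 13 h, and 7.30 and 6.69 CPM after 25 h. The tunicamycin libraries were all below DMSO, and those at 25 h just below those at 13 h. Mttp fell by 0.69 ± 0.12 at 13 h and by 0.88 ± 0.14 at 25 h on the log2 scale against DMSO (edgeR, adjusted p = 2.43e-04 and 8.85e-05). The difference of -0.19 ± 0.15 between 25 h and 13 h did not pass (adjusted p = 0.44). Its partner subunit moved the other way: P4hb, a protein disulfide isomerase that also serves protein folding in the ER, had 311 and 295 CPM in DMSO, 954 and 992 CPM after 13 h, and 733 and 791 CPM after 25 h. P4hb rose by 1.33 ± 0.05 on the log2 scale at 25 h against DMSO (edgeR, adjusted p = 7.42e-11).

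The fatty acid-binding protein gene Fabp2 had its larger log2 step in the first interval. So had every other gene tested of the 10 except Dgat1 and Dgat2. Fabp2 had 617 and 549.6 CPM in DMSO enterocytes, 199.8 and 188 CPM after 13 h, and 139 and 138 CPM after 25 h. No groups overlapped, and the 25 h libraries differed by less than the DMSO libraries. Fabp2 fell at 13 h (log2 fold change -1.59 ± 0.06, 3.01-fold lower, edgeR, adjusted p = 3.7e-11) and at 25 h (-2.07 ± 0.06, 4.2-fold lower, adjusted p = 5.98e-12) against DMSO. Between 13 h and 25 h it fell by 0.48 ± 0.06 (edgeR, adjusted p = 7.13e-05).

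Fabp1, which encodes the liver-type fatty acid-binding protein, was almost undetected. Enterocytes held 1 Fabp1 UMI in 75805472, in 25 h replicate 2, and the DMSO and 13 h enterocytes held 0. In DMSO, 0 of 34184405 UMIs allows a level of up to 0.0878 CPM (3 counts over the group, counting error only, unscaled). Goblet cells held 0 and the cells named tuft held 2, both in 25 h replicate 1, so Fabp1 was in no test. Its paralog Fabp6, the ileal bile acid-binding protein, had 10.8 and 18.5 CPM in DMSO enterocytes, 38.1 and 44.8 CPM after 13 h, and 43.1 and 38.4 CPM after 25 h. Fabp6 rose by 1.48 ± 0.17 on the log2 scale at 25 h against DMSO (edgeR, adjusted p = 5.56e-06), opposite in direction to Fabp2, and it was singled out after its values were seen.

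The acyltransferases Dgat1 and Dgat2 changed least. Dgat1 had 133 and 132 CPM in DMSO enterocytes, 119 and 121 CPM after 13 h, and 97.4 and 96.2 CPM after 25 h. It fell by 0.45 ± 0.05 on the log2 scale at 25 h against DMSO (26.8% lower, edgeR, adjusted p = 2.46e-06). At 13 h its fall was 0.14 ± 0.04 (9.02% lower, edgeR, adjusted p = 0.0208), and the call was lost with total-count scaling (-0.08, adjusted p = 0.162) and with DESeq2 (-0.14, adjusted p = 0.16). It was also lost without 13 h replicate 1 (edgeR, adjusted p = 0.057) or without DMSO replicate 1 (adjusted p = 0.0682), and the value was -0.22 with cells of at most 10% mitochondrial UMIs.

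Dgat2 had 106 and 105 CPM in DMSO enterocytes, 90.7 and 85.9 CPM after 13 h, and 72.4 and 74.3 CPM after 25 h. No groups of either acyltransferase overlapped. Dgat2 fell by 0.26 ± 0.05 on the log2 scale at 13 h and by 0.53 ± 0.05 at 25 h against DMSO (edgeR, adjusted p = 5.28e-04 and 1.48e-06). Both genes were lower at 25 h than at 13 h, Dgat1 by 0.31 ± 0.05 and Dgat2 by 0.27 ± 0.05 (edgeR, adjusted p = 3.74e-04 and 0.00311).

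Cd36 rested on few molecules. Enterocytes held 86 and 80 Cd36 UMIs in DMSO, 26 and 21 after 13 h, and 5 and 14 after 25 h, which are 5.05 and 4.89, 2.14 and 1.58, and 0.63 and 1.61 CPM. The DMSO libraries were above all others, and the 25 h and 13 h libraries overlapped. Cd36 fell by 1.42 ± 0.25 on the log2 scale at 13 h and by 2.11 ± 0.32 at 25 h against DMSO (edgeR, adjusted p = 3.31e-04 and 7.92e-05). The difference between 25 h and 13 h did not pass (-0.69 ± 0.40, adjusted p = 0.258). With the stricter cell filter of at most 10% mitochondrial UMIs, Cd36 was at -2.18 at 13 h against DMSO.

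Ranked among the 11145 genes from the lowest fold change up, Apoc3 stood 48th, Apoa4 49th, Cd36 75th and Fabp2 78th at 25 h against DMSO. Apoa1 stood 189th, while Mttp, Apob, Dgat2 and Dgat1 stood between 664th and 1835th. Cell class markers and RNA quality moved in the same samples. The 12 enterocyte markers summed to 7057 and 6891 CPM (unscaled) in DMSO enterocytes, 5608 and 5427 after 13 h, and 5078 and 4836 after 25 h, and 8 of the 9 tested fell at 25 h (median log2 fold change -0.66). The 12 goblet markers, none of them at 0, summed in enterocytes to 3932 and 3864 CPM (unscaled) in DMSO, 3349 and 3248 after 13 h, and 3044 and 2363 after 25 h. Of 11 goblet markers tested there, 4 rose and 2 fell at 13 h (median log2 fold change 0.34), and 5 rose and 4 fell at 25 h (median 0.33), so most members did not move with the sum. Over all genes in enterocytes, 23.8% fell and 23.8% rose at 13 h (median 0.01). At 25 h 24.2% of all genes fell and 26.1% rose (median 0.03). Mitochondrial UMIs made up 9.53% and 9.41% of enterocyte UMIs in DMSO, 9.05% and 9.34% after 13 h, and 8.30% and 7.95% after 25 h. The median enterocyte held between 14757 and 17862 UMIs. The part of these values in the falls was not tested.

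Single cells were therefore also examined, after each was thinned to 5000 UMIs. Cells under 5000 UMIs were left out of this. In DMSO it kept 1033 of 1046 and 1024 of 1037 enterocytes, and 97 of 105 and 102 of 109 goblet cells. At that depth 40.4% and 39.7% of DMSO enterocytes had an Apoa1 UMI, against 27.1% and 27.2% at 13 h and 19.6% and 18.3% at 25 h. Apoc3 was seen in 47.3% and 48.0% of DMSO enterocytes, 31.2% and 29.3% after 13 h, and 21.2% and 21.4% after 25 h. Fabp2 was seen in 47.4% and 48.8%, then 30.9% and 30.4%, and then 21.0% and 22.1%. For these genes the share with a UMI thus differed between times by more than between libraries. At a fixed depth this share also drops with the level of the gene. It cannot tell fewer cells with the transcript from less transcript per cell. The share was also lower in both libraries than in both DMSO libraries for 8 of the 9 tested genes at 13 h and 9 of 9 at 25 h. The exception was Dgat1, seen in 43.1% and 42.5% of enterocytes at 13 h against 43.2% and 42.9% in DMSO, and in 35.8% and 33.2% at 25 h. How many of all genes had such lower shares of cells was not computed, so these counts of genes have no background.

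Cells with many molecules were also fewer. The mean over enterocytes with an Apoc3 UMI was 4.08 and 4.37 UMIs per cell in DMSO, 2.93 and 2.44 after 13 h, and 1.87 and 1.77 after 25 h. For Fabp2 it was 6.43 and 5.87 in DMSO, 3.34 and 3.4 after 13 h, and 3.63 and 3.18 after 25 h. So the mean of positive cells was lower again at 25 h for Apoc3, while for Fabp2 the libraries of 25 h and 13 h overlapped. Apob was the most widespread, with a UMI in 88.1% and 87.9% of DMSO enterocytes, 82.3% and 81.9% after 13 h, and 75.2% and 74.5% after 25 h. Without thinning Apob was seen in 96.6% and 96.8% of DMSO enterocytes, 94.8% and 95.2% after 13 h, and 91.8% and 92.6% after 25 h. Unthinned shares of Apoa1 were 66.0% and 62.4% in DMSO, 46.1% and 48.1% after 13 h, and 37.1% and 45.4% after 25 h.

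**Figure D3:**
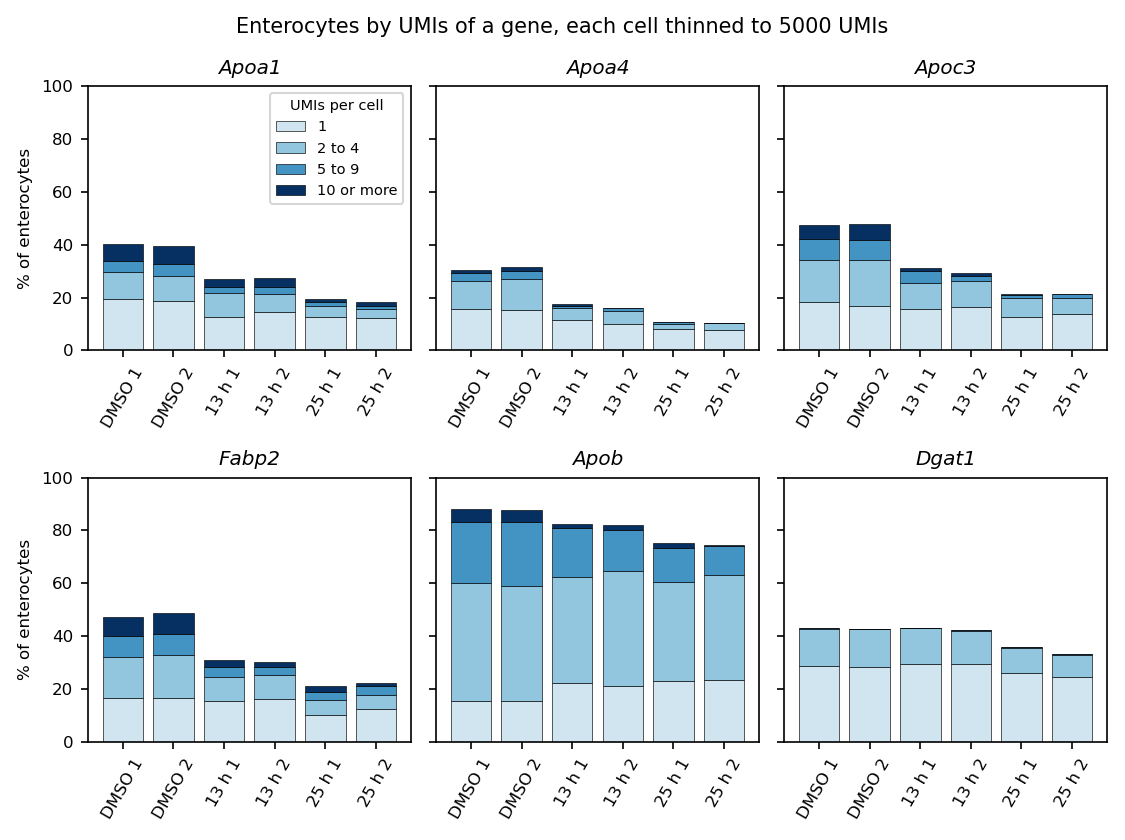
Stacked share of enterocytes (percent, axis 0 to 100) with 1, 2 to 4, 5 to 9, or 10 or more UMIs of a gene, by library, after each cell was thinned to 5000 UMIs. Cells under 5000 UMIs were left out. The segments for many UMIs are smaller in both tunicamycin groups for Apoc3 and Fabp2, and the whole bar stays tallest for Apob, between 74.5% and 88.1%.

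The genes differed in how unevenly their transcripts were spread among enterocytes. In DMSO the 10% of enterocytes with the most Apoa1 held 83.6% and 85.1% of the Apoa1 UMIs after thinning, and for Apoa4 the top 10% held 66.7% and 67.4%. For Apob it held 28.9% and 28.5%. At a fixed depth this share also depends on the level of the gene. The mean DMSO level was 165 CPM for Apoa4, 607 CPM for Apoa1 and 718 CPM for Apob. The part of the level in these shares was not tested. Across single enterocytes, Apoa4 and Apoc3 went together most of the 28 pairs of 8 genes (Spearman's rho 0.42 and 0.47 in DMSO, 0.35 and 0.33 at 13 h, 0.32 and 0.22 at 25 h, over 424 to 1033 cells of a library). The other 27 pairs lay between -0.09 and 0.27. Cells of a library share its capture and depth, so these values describe the libraries.

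In goblet cells 7 of the 10 genes could be tested, all but Fabp1, Mttp and Cd36, over 7839 genes. Goblet cells held 1 and 7 Mttp UMIs in DMSO, 5 and 4 after 13 h, and 5 and 3 after 25 h, with the tunicamycin libraries between the DMSO libraries. Cd36 had 8 and 1 UMIs in DMSO goblet cells and 0 in the 4 tunicamycin libraries. Of the 7, 5 fell at 13 h against DMSO, where 11.5% of goblet genes fell, and 7 fell at 25 h against DMSO, where 16% fell. Between 25 h and 13 h edgeR called 0 of the 7 lower, where 1.47% of goblet genes fell, and 0 higher, where 2.03% rose. At an unadjusted p below 0.05, 3 of the 7 were lower by edgeR and 2 by DESeq2, which also called 0 lower after adjustment, and 0 were higher at that level by either. The share of all goblet genes at that unadjusted level was not computed, so the 3 and the 2 cannot be weighed against it. Dgat1 and Dgat2 were the 2 that did not pass at 13 h.

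Goblet cells showed a steep fall of Apob. It had 211 and 211 CPM in DMSO goblet cells, 93.4 and 109 CPM after 13 h, and 79.8 and 63.3 CPM after 25 h, with no overlap between groups. How many of all goblet genes had groups without overlap was not computed. The Apob log2 fold change against DMSO was -1.06 ± 0.14 at 13 h and -1.55 ± 0.14 at 25 h (edgeR, adjusted p = 1.24e-05 and 5.65e-08). Fabp2 had 467 and 411 CPM in DMSO goblet cells, 97.1 and 152 CPM after 13 h, and 119 and 89.1 CPM after 25 h. The tunicamycin groups overlapped with each other, and both lay far below DMSO. Fabp2 fell at both times, with log2 fold changes of -1.82 ± 0.16 at 13 h and -2.07 ± 0.16 at 25 h (edgeR, adjusted p = 1.12e-07 and 5.73e-09).

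The surface apolipoproteins were measured on few goblet molecules. Apoa4 had 31 and 62 UMIs in DMSO goblet cells, 8 and 11 after 13 h, and 5 and 2 after 25 h. Apoc3 had 44 and 127 UMIs in DMSO, 5 and 18 after 13 h, and 8 and 14 after 25 h. Both DMSO libraries were above all tunicamycin libraries for each gene, although the 2 DMSO libraries differed by more than 2-fold in Apoc3. At 25 h against DMSO, Apoa4 fell by 3.84 ± 0.45 and Apoc3 by 3.10 ± 0.46 on the log2 scale (edgeR, adjusted p = 1.72e-06 and 2.62e-05). In DMSO replicate 2 a cell called a doublet held 19 of the 62 Apoa4 UMIs and 43 of the 127 Apoc3 UMIs, and in DMSO replicate 1 a single cell held 21 of the 31 Apoa4 UMIs (67.7%). Without the highest cells Apoc3 was at -3.24 ± 0.45 at 25 h (edgeR, adjusted p = 2.17e-06), while Apoa4 had too few goblet UMIs left to be tested.

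Apoa1 had 160 and 98 UMIs in DMSO goblet cells, 14 and 74 after 13 h, and 26 and 10 after 25 h. The 13 h libraries lay far apart. A single goblet cell held 57 of the 74 UMIs (77.0%) in 13 h replicate 2, 20 of the 26 (76.9%) in 25 h replicate 1 and 100 of the 160 (62.5%) in DMSO replicate 1, and a cell called a doublet held 38 of the 98 in DMSO replicate 2. Apoa1 fell by 1.38 ± 0.37 on the log2 scale at 13 h (edgeR, adjusted p = 0.0103) and by 3.00 ± 0.44 at 25 h (adjusted p = 2.52e-05) against DMSO. The 13 h call was lost with DESeq2 (adjusted p = 0.507), with called doublets left out (-1.16, adjusted p = 0.0788), without 13 h replicate 1 (-0.64, adjusted p = 0.151) and without DMSO replicate 1 (-0.93, adjusted p = 0.251). Without 13 h replicate 2 the value was -3.02. Without the highest cells it was -1.46 ± 0.32 at 13 h and -2.86 ± 0.37 at 25 h (edgeR, adjusted p = 0.0012 and 6.16e-07). Dgat1 fell by 0.71 ± 0.23 and Dgat2 by 0.78 ± 0.24 at 25 h (edgeR, adjusted p = 0.0228 and 0.017), and both calls were lost with DESeq2 (adjusted p = 0.164 for Dgat1 and 0.205 for Dgat2). The Dgat1 call was also lost with total-count scaling (-0.57, edgeR, adjusted p = 0.0593), without 25 h replicate 2 (-0.36, adjusted p = 0.275) and without DMSO replicate 2 (-0.49, adjusted p = 0.236), and its value was -1.23 without 25 h replicate 1. The Dgat2 call was lost without either 25 h library (edgeR, adjusted p = 0.0747 and 0.0707) and without DMSO replicate 2 (-0.43, adjusted p = 0.305).

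Levels by class are a description, since the authors' classes may have used these genes. As unscaled CPM, goblet Fabp2 stood at 71.1% and 71.5% of the enterocyte level of the same DMSO library and Apob at 27.6% and 28.0%. Apoc3 stood at 9.21% and 24.3%, and Apoa4 at 16% and 26.1%. Enterocyte markers, for comparison, had a median of 40.2% in DMSO. The 9 markers with at least 10 CPM in enterocytes lay between 15.5% and 142.7%. The 8 genes of this report with at least 10 CPM lay between 16.7% and 71.3% in DMSO, inside the marker range. At 5000 UMIs per cell, 46.4% and 50.0% of DMSO goblet cells had a Fabp2 UMI, close to the enterocyte shares, while 30.9% and 33.3% had an Apob UMI. For Apob the goblet share was 22.2% and 28.6% at 13 h and 11.5% and 7.32% at 25 h. Goblet cells with an Apoa1 UMI made up 8.25% and 17.6% in DMSO, 2.78% and 7.14% after 13 h, and 3.13% and 1.22% after 25 h. Before thinning the median goblet cell held between 11573 and 13437.5 UMIs. How much of the apolipoprotein signal in goblet cells is free RNA was not tested.

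The response of each gene was also compared between the classes, as the goblet log2 fold change minus the enterocyte log2 fold change, with each library as a block, over 10458 genes. At 13 h it differed for Apob (-0.67 ± 0.14, edgeR, adjusted p = 0.00119) and Apoc3 (-1.42 ± 0.40, adjusted p = 0.0265), and at 25 h for Apob (-0.85 ± 0.14, adjusted p = 3.46e-05) and Apoa1 (-1.40 ± 0.44, adjusted p = 0.0443). A difference in either direction passed for 4.81% of all genes at 13 h and 7.06% at 25 h, and with the goblet response below the enterocyte response for 3.33% and 4.5%. In each of the 4 cases the goblet fall was the deeper one. The Apoa4 difference of -1.50 ± 0.50 at 25 h did not pass (edgeR, adjusted p = 0.0598), and it did without DMSO replicate 1 (-1.75, adjusted p = 0.0448). Fabp2 differed by -0.04 ± 0.15 at 25 h (95% interval -0.33 to 0.25, adjusted p = 0.937), so the interval leaves room for a difference of up to those bounds.

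The Apob difference at 25 h kept its call under every alternative run, with -1.40 without the highest cells, and at 13 h it was lost without DMSO replicate 1 (-0.63, edgeR, adjusted p = 0.0548) or 13 h replicate 1 (-0.54, adjusted p = 0.102). The Apoa1 difference at 25 h fell to -0.64 without the highest cells (edgeR, adjusted p = 0.461) and to -0.02 without 25 h replicate 2 (adjusted p = 0.998). It was also lost without DMSO replicate 1 (-0.88, edgeR, adjusted p = 0.583), with doublets left out (-1.16, adjusted p = 0.181), and by small margins with 2 other scalings and no cell filter (adjusted p between 0.0503 and 0.0851). The Apoc3 difference at 13 h was -0.52 without DMSO replicate 2 and -0.68 without 13 h replicate 1 (edgeR, adjusted p = 0.702 and 0.685). It was also lost without 25 h replicate 1, with total counts, with the stricter cell filter of at most 10% mitochondrial UMIs and with doublets left out (edgeR, adjusted p between 0.068 and 0.13).

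**Figure D4:**
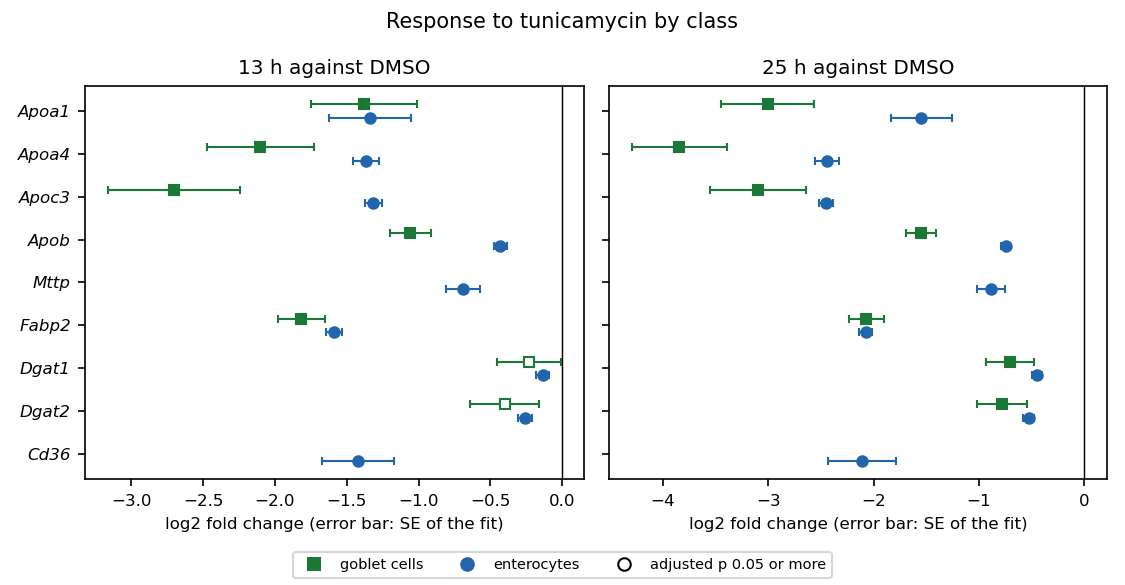
Log2 fold change against DMSO in goblet cells (green squares) and enterocytes (blue circles) at 13 h (left) and 25 h (right). Error bars are SE of the fit and open symbols did not pass. Apob lies at -1.06 in goblet cells and -0.43 in enterocytes at 13 h, while Fabp2 lies at -2.07 in both at 25 h.

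Cells that the authors named tuft, 12 to 27 of them in a library, were not tested. They held Apob at 203 and 302 CPM (unscaled) in DMSO, 188 and 231 after 13 h, and 81.1 and 139 after 25 h. Apoa4 was at 0 in these cells in 4 of 6 libraries.

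Other steps of lipid absorption were described with gene lists and the enterocyte fit. Of 14 genes of lipid uptake and binding, 12 were tested, and at 25 h against DMSO 11 fell and 1 rose (median log2 fold change -0.80, against 0.03 over all genes, of which 24.2% fell and 26.1% rose). Dbi, which binds acyl-coenzyme A, had 2213 and 2255 CPM in DMSO, 959 and 925 CPM after 13 h, and 746 and 793 CPM after 25 h, and fell by 1.54 ± 0.05 on the log2 scale at 25 h (edgeR, adjusted p = 7.94e-12). Npc1l1, the uptake route of cholesterol, fell by 1.58 ± 0.07 (edgeR, adjusted p = 5.25e-10). Lipa, the lysosomal acid lipase, fell by 0.87 ± 0.05, and Acsl5, an acyl-coenzyme A synthetase, by 0.73 ± 0.05. The 1 gene that rose was Fabp6. At 13 h 10 of the 12 fell and 2 rose, where 23.8% of all genes moved in each direction.

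Of 14 genes of glyceride and sterol ester synthesis 12 were tested, and 8 fell and 3 rose at 25 h against DMSO (median -0.29), where 24.2% of all genes fell and 26.1% rose. At 13 h 6 fell and 2 rose (median -0.19), where 23.8% of all genes moved in each direction. Soat2, which esterifies cholesterol for packing into lipoproteins, had 10.3 and 11.7 CPM in DMSO, 34.9 and 38.4 CPM after 13 h, and 40.2 and 40.8 CPM after 25 h. It rose by 1.88 ± 0.09 on the log2 scale at 25 h (edgeR, adjusted p = 7.71e-10). Lpin1, a phosphatidate phosphatase, fell by 1.61 ± 0.21, Lpcat3, which remodels phospholipids, fell by 0.81 ± 0.06, and Agpat3, an acyltransferase, rose by 0.76 ± 0.09. Mogat2, which makes the diglyceride that Dgat1 and Dgat2 use, fell by 0.23 ± 0.08 at 25 h (edgeR, adjusted p = 0.0195). That call was lost with DESeq2 (adjusted p = 0.0807), with total-count scaling (adjusted p = 0.066), without 25 h replicate 2 (-0.13, adjusted p = 0.26) and without DMSO replicate 2 (adjusted p = 0.115), and the value was -0.37 without 25 h replicate 1 or with the stricter cell filter.

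Of 19 genes of lipoprotein assembly and secretion 15 were tested, and 6 rose and 4 fell at 25 h against DMSO (median 0.08), where 26.1% of all genes rose and 24.2% fell. At 13 h 6 rose and 3 fell (median 0.10), where 23.8% of all genes moved in each direction. Besides P4hb, Surf4, a cargo receptor for lipoproteins leaving the ER, rose by 0.84 ± 0.05 on the log2 scale at 25 h (edgeR, adjusted p = 1.59e-08). Prap1, which binds triglyceride, fell by 0.75 ± 0.05 and Cideb, a lipid droplet protein, by 0.61 ± 0.05. Sar1b, the coat GTPase needed for chylomicron export, fell by 0.20 ± 0.05 (edgeR, adjusted p = 0.00697), a call lost without 25 h replicate 2 (-0.13, adjusted p = 0.0747).

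Of 19 regulators of these genes 17 were tested, and 5 fell and 3 rose at 25 h against DMSO (median 0.04), where 24.2% of all genes fell and 26.1% rose. At 13 h 6 fell and 1 rose (median -0.12), where 23.8% of all genes moved in each direction. Hnf4a, a regulator of enterocyte genes, had 359.6 and 360.4 CPM in DMSO, 328 and 323 CPM after 13 h, and 300.4 and 305 CPM after 25 h, and fell by 0.25 ± 0.04 on the log2 scale at 25 h (edgeR, adjusted p = 2.86e-04). Creb3l3, an ER-bound activator of apolipoprotein genes in liver, had 6.28 and 5.25 CPM in DMSO, 4.93 and 3.61 CPM after 13 h, and 1.13 and 2.08 CPM after 25 h. It fell by 1.82 ± 0.29 at 25 h (edgeR, adjusted p = 1.18e-04), and at 13 h its -0.44 ± 0.21 did not pass (adjusted p = 0.093), although it did with no filter on low counts (adjusted p = 0.0389) and without 13 h replicate 1 (-0.70, adjusted p = 0.0446). Klf4, a factor of differentiated epithelium, fell by 0.40 ± 0.05, and Ppargc1a, a coactivator of metabolic genes, by 0.60 ± 0.06.

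Of 11 genes beside the Apoa1 to Apoa4 cluster 9 were tested, and 2 fell and 1 rose at 25 h against DMSO (median 0.15), where 24.2% of all genes fell and 26.1% rose. At 13 h 3 fell and 2 rose (median 0.24), where 23.8% of all genes moved in each direction. Sik3, a kinase gene, fell by 0.39 ± 0.07 on the log2 scale at 25 h (edgeR, adjusted p = 3.97e-04), and Pcsk7, a proprotein convertase gene, fell by 0.68 ± 0.09. Zpr1 rose by 0.81 ± 0.11, and Bace1 was at 0.96 ± 0.44 (adjusted p = 0.0834).

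**Figure D5:**
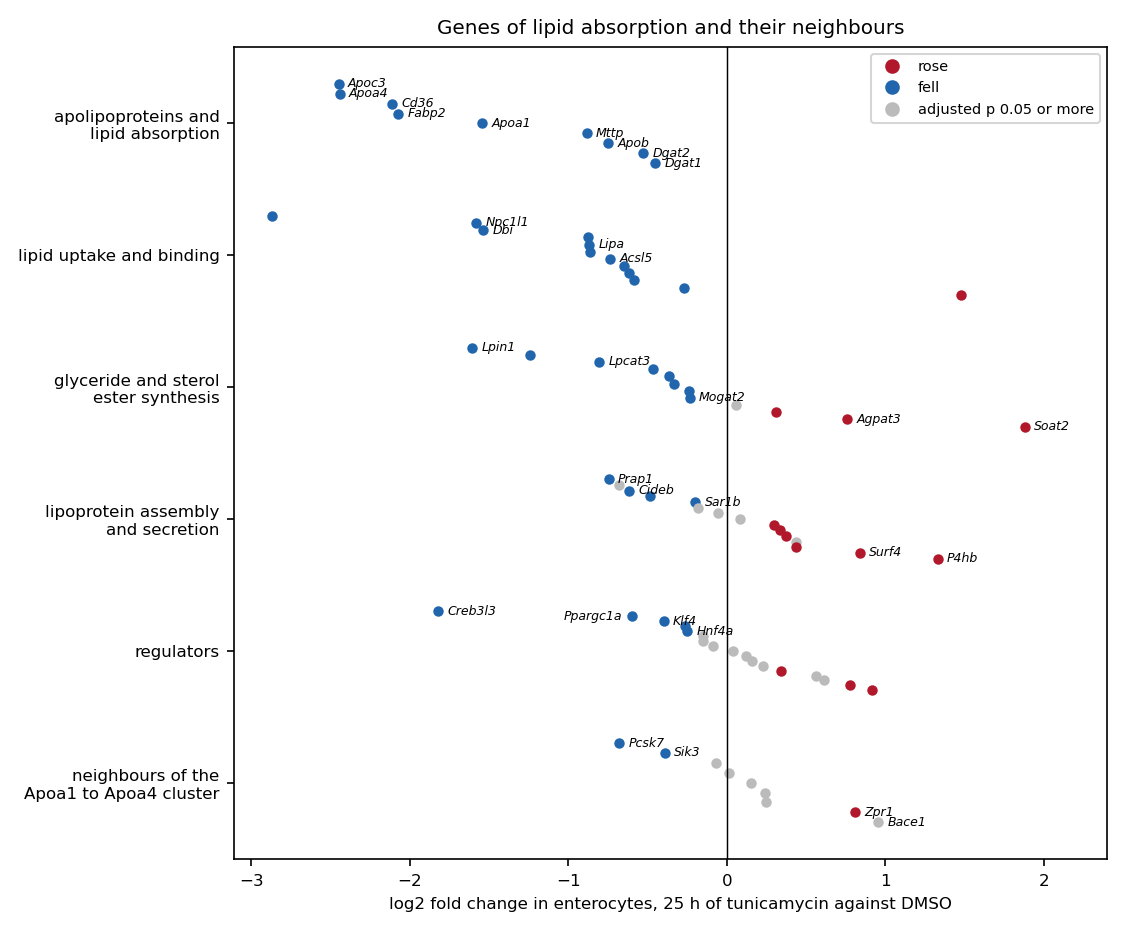
Log2 fold change in enterocytes at 25 h of tunicamycin against DMSO for the genes of this report (top row) and for 5 lists of related genes, 1 point per gene tested (blue fell, red rose, grey did not pass). The top row lies wholly below 0, and the assembly list spans both sides, with P4hb at 1.33 and Prap1 at -0.75.

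For each gene the closest course over the 6 libraries was sought among 5049 genes with a mean of at least 20 CPM in enterocytes, as the smallest root mean square difference in log2 level relative to the DMSO mean. Apoc3 and Apoa4 were both closest to Acsf2, an acyl-coenzyme A synthetase gene (0.10 and 0.21 log2 units), and Fabp2 was closest to Eno3, a muscle-type enolase gene (0.08). Apob was closest to Dcxr (0.02), Mttp to Iqgap2 (0.03), Dgat1 to Itch (0.02) and Dgat2 to Polr2a (0.01). Apoa1 and Cd36 had no gene closer than 0.37, the distance of Dpysl2 to Apoa1 and of AY036118 to Cd36.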

How the data were processed

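Single-cell RNA was measured in 6 libraries of mouse organoid monolayers. The authors deposited 1 matrix of raw UMI counts for 5122 cells, made with Cell Ranger on mm10 per the submitters' processing notes, and these sources give neither its version nor a cell filter. Each cell name gives library, barcode and the authors' class, and 12 barcodes occurred in more than 1 library. Cells under 1000 UMIs or 500 genes, or over 25% mitochondrial UMIs, were to be left out, which removed 96 cells, all for the mitochondrial share. Scrublet in scanpy 1.11.5 called 31 cells doublets (0.605%), and they were kept. GENCODE vM21 matched 27645 of 27998 identifiers.

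Counts were summed per library and class and fitted with edgeR 4.0.16 in R 4.3.3 (filterByExpr, TMM scaling, group as the only term, all 6 libraries). Classes were compared in their responses as an interaction with the library as a block. Alternatives were DESeq2 1.42.0, DESeq2 size factors or total counts in edgeR, no count filter, no cell filter, at most 10% mitochondrial UMIs (the stricter filter), doublets left out, the replicate number as a block, 2-group fits, each library left out and, chosen after seeing the data, the highest cells left out. The fit was checked on simulated counts. No library looked like a copy of another: the 2 of a group differed beyond sampling noise (chi-square per degree of freedom 2.38 to 4.18), which does not show that they are independent. Without 1 library, the other of its group is assumed to vary like the other groups. The highest cells were picked by the values compared, and 1 cell is a larger share of a library with fewer cells. Shares of cells have counting error only.

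All 10 genes are named, with up to 4 genes of each list by lowest adjusted p in enterocytes at 25 h against DMSO, and always P4hb, Mogat2, Sar1b, Creb3l3 and Hnf4a. Fabp6 was added. Nearest courses were taken from genes with a mean of at least 20 CPM. The genes, lists and tests were chosen with earlier results of these data known. Protein sequences were not used here.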

Additional observations from a re-analysis of the deposited data

Results flagged for a closer look

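The response of 3 genes passed as different between the 2 main classes in the interaction test of edgeR, given as goblet minus enterocyte log2 fold change. Over all genes, 4.81% passed in either direction at 13 h and 7.06% at 25 h. Only the Apob difference at 25 h kept its call under every alternative run. For Apob the difference was -0.67 at 13 h and -0.85 at 25 h against DMSO. For Apoc3 it was -1.42 at 13 h, on 5 and 18 goblet UMIs at 13 h and 44 and 127 in DMSO. For Apoa1 it was -1.40 at 25 h, and -0.64 without the highest cell of each library. With 2 libraries per group, no library was tested for standing apart from its group.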

How the results depend on the processing

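In enterocytes all 9 falls at 25 h against DMSO kept their call under all 16 alternatives (scaling, count filter, cell filters, doublets, DESeq2, replicate block, 2-group fits, single libraries left out and highest cells left out), and at 13 h between 7 and 9 did, with Apoa1 and Dgat1 the exceptions. The deviations of same-numbered libraries from their group means had correlations of -0.03, -0.02 and -0.01 between groups, over 11145 genes in enterocytes. Values near 0 cannot show whether such libraries shared an animal, a culture or a run. With the replicate number as a block, 9, 9 and 6 genes fell in enterocytes (13 h and 25 h against DMSO, 25 h against 13 h) and 5, 7 and 0 in goblet cells, as without it. Between 25 h and 13 h, the number that rose in enterocytes and in all cells was 0 to 1 over left-out libraries, the 1 being Apoa1 without 25 h replicate 1. In goblet cells the number that fell was 0 to 1 over left-out libraries, 1 with no filter on low counts (Apoa1) and 1 without the highest cells (Apob), against 0. Class differences passed for 2 genes at 13 h and 2 at 25 h, where 4.81% and 7.06% of all genes passed. At 13 h this was 1 with total counts, the stricter cell filter or doublets left out, and 0 to 3 over left-out libraries. At 25 h it was 1 with total counts, DESeq2 size factors, doublets left out, no cell filter or no highest cells, and 1 to 2 over left-out libraries. Without DMSO replicate 1 the 2 were Apob and Apoa4 (-1.75, adjusted p = 0.0448), not Apoa1. Directions that turned, all for 25 h against 13 h, were as follows. Over left-out libraries Apoa1 ranged between -1.26 and 0.38 in enterocytes and between -1.32 and 0.29 in all cells (positive without 25 h replicate 1). Mogat2 ranged between -0.049 (without 25 h replicate 1) and 0.18 in enterocytes. In goblet cells Apoa1 ranged between -2.37 and 0.022, Apoc3 between -1.03 and 0.79, and Fabp2 between -0.54 and 0.11, with the highest value of each without 13 h replicate 2, and Apoc3 was at 0.05 without 25 h replicate 1. With the stricter cell filter Cd36 was at 0.23 in enterocytes and 0.77 in all cells. The cause of these changes was not tested. DESeq2 called fewer genes over the whole table than edgeR: in enterocytes 1723 rose at 13 h and 1922 at 25 h against DMSO (2652 and 2905 with edgeR), and for 25 h against 13 h 737 fell and 538 rose (1217 and 1163). In goblet cells 372 fell at 13 h and 638 at 25 h (905 and 1256), and 55 for 25 h against 13 h (115, and 206 with no filter on low counts). Goblet rises at 13 h and 25 h were 425 and 573 (849 and 1235), and 103 for 25 h against 13 h (159). In all cells 1855 fell at 13 h (2787), and for 25 h against 13 h 696 fell and 515 rose (1101 and 1027). Few UMIs limit the precision for Cd36, Mttp and the goblet apolipoproteins.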
